A study of Mus musculus with 12 samples.

Results

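This report describes how gene expression changed in tbGFP-negative mouse embryonic stem cells during their 6 h in sorbitol. It compares the 2 libraries labelled as the tbGFP-negative fraction at 6 h with the 2 labelled as that fraction at 0 h, 4 of the 12 libraries of the series. The cells were E14, a mouse embryonic stem cell line, of genotype 2C::3xtbGFP, in which turboGFP (tbGFP) reports the 2-cell-like state, and all groups carried it. They were grown on gelatin in serum with leukemia inhibitory factor (LIF), were plated without the 2 kinase inhibitors used for expansion, and were collected after 48 h of culture having had sorbitol for 0 or 6 h. Sorbitol is a sugar alcohol that makes the medium hyperosmotic. From each sample 50000 cells were sorted, here as tbGFP-negative, and 120 ng of total RNA went into a stranded library. The sorbitol concentration and the number of clones of the reporter line are not given in the sources used here, nor is it said whether the 48 h include the time in sorbitol. Whether the libraries of a group stem from different cultures is not in the labels, so p-values rest on a spread between samples that may be technical only.

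A hyperosmotic medium draws water out of cells and raises the ionic strength inside them. Cells answer within minutes with ion uptake and stress-activated MAP kinases, and over hours they exchange the ions for organic osmolytes such as myo-inositol, sorbitol, taurine, betaine and neutral amino acids, using transporters and enzymes many of which are controlled by the transcription factor NFAT5. Osmotic shrinkage also damages proteins, slows translation and can cause DNA breaks, so that heat shock, p53 and stress-kinase genes often respond beside the osmolyte genes. In embryonic stem cells p53 can be active without arresting the cycle for long, and pluripotency rests on core factors such as OCT4 and SOX2 with LIF, FGF-ERK and WNT signalling around them.

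The 4 libraries held 2306870 and 7344399 counts at 0 h and 6583584 and 5045092 at 6 h. Values are depth-scaled counts (CPM) with TMM factors, in the order replicate 1 and replicate 2, and log2 fold changes are given ± SE. The test was the quasi-likelihood F test of edgeR with all 12 libraries in the fit, its p-values were adjusted by Benjamini-Hochberg across the 19384 genes tested, and "rose" and "fell" mean an adjusted p under 0.05. Among the markers set for embryonic stem cells, Pou5f1 (OCT4) stood at 1364 and 1196 CPM at 0 h and Sox2 at 475 and 403 CPM. Tdh, a threonine dehydrogenase typical of these cells, stood at 118 and 101 CPM. The others were low at 0 h. Nanog lay at 11.9 and 13.5 CPM and the main transcript of Zfp42 at 7.81 and 9.6 CPM. The main transcript of Esrrb, annotated as noncoding, lay at 14.1 and 7.46 CPM. The 2-cell list, which the sort selects against, took 0.0052% and 0.00968% of counts at 0 h and 0.0196% and 0.0168% at 6 h. In bulk samples fewer cells of a type and less RNA per cell cannot be told apart.

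At 6 h 860 genes differed from 0 h, 4.44% of those tested. Of these, 625 rose, which is 3.22%, and 235 fell, which is 1.21%. At least 2-fold were 481 of the increases and 200 of the decreases. Over all genes tested the median log2 fold change was 0.05, and 51.9% of the values were positive. The balance of directions moved with the scaling: with library totals alone 339 genes rose and 576 fell, and the median of all genes moved to -0.22. One abundant noncoding RNA moved too. Rn7sk, the 7SK RNA that holds back the transcription elongation factor P-TEFb, stood at 29744 and 28986 CPM at 0 h and at 66140 and 62606 CPM at 6 h (1.13 ± 0.18, adjusted p = 0.00231), and without it 817 genes were called. The number of calls also depended on the libraries in the fit. It was 4348 with the 6 tbGFP-negative libraries alone, which kept 845 of the 860 calls, and between 152 and 234 when 1 of the 4 libraries was left out.

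**Figure D1:**
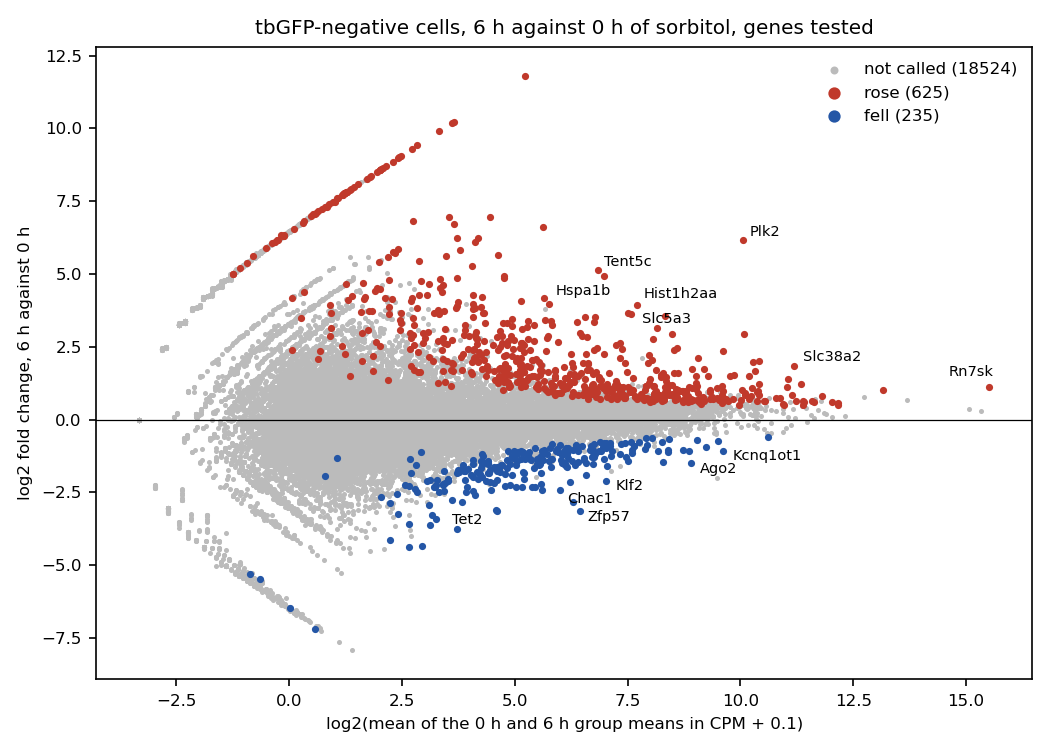
Log2 fold change at 6 h against 0 h (vertical axis) by mean level (horizontal axis, log2 of CPM + 0.1) for the 19384 genes tested in tbGFP-negative cells. Red points are the 625 genes that rose and blue points the 235 that fell. The straight upper line of points holds genes without counts at 0 h, whose fitted fold change depends on the prior count. Plk2 and Slc5a3 lie high at middle levels, and Rn7sk lies at the right end with a small change.

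Osmolyte and ion handling came up through a few members. Of 25 tested genes of this list 5 rose (20%, against 3.22% of all genes) and none fell, with a median log2 fold change of 0.20. Slc5a3 encodes the sodium/myo-inositol cotransporter (ENSMUSG00000089774.2, chromosome 16, 92058322 to 92087473, plus strand, GRCm38). It stood at 25.7 and 27.9 CPM at 0 h and at 358 and 319 CPM at 6 h (3.65 ± 0.25, adjusted p = 1.71e-06), so that both 6 h libraries lay more than 10-fold above both 0 h libraries. Slc5a3 lies within the gene model of Mrps6 on the same strand. The counts of Mrps6 went from 0.744 and 0.679 to 12.4 and 12 CPM (adjusted p = 0.00816), and those of Gm16310, an intronic transcript there, from 1.49 and 0.679 to 41.1 and 55.1 CPM (adjusted p = 0.000208). Both were named after their values were seen, and reads of 1 of the 3 genes may have been counted for another.

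Some transporters and pumps of other solutes rose too. Slc38a2, the SNAT2 carrier that brings in neutral amino acids, stood at 939 and 1070 CPM at 0 h and at 3752 and 3528 CPM at 6 h (1.86 ± 0.17, adjusted p = 1.91e-05). Aqp3, a water and glycerol channel, went from 12.3 and 8.26 to 64.5 and 70.9 CPM (2.77 ± 0.55, adjusted p = 0.00876). Atp1b1, the beta subunit of the sodium pump, went from 68.8 and 70.9 to 128 and 136 CPM (0.92 ± 0.18, adjusted p = 0.00893). In each of these genes the groups did not overlap. In the list of amino acid transporters as a whole, Slc38a2 was the 1 of 18 that rose (5.56%), and Slc1a5, a glutamine carrier, fell from 12.6 and 10.4 to 0.836 and 1.04 CPM (-3.60 ± 0.72, adjusted p = 0.00924), with 58.1% of its counts on retained-intron transcripts (-3.29, adjusted p = 0.13 without them). Over all genes tested both 6 h libraries lay above both 0 h libraries in 31.9% and below them in 24.6%, so separate groups alone are common. The taurine transporter gene Slc6a6 lay at 401 and 384 CPM at 0 h and at 372 and 439 CPM at 6 h, with overlapping groups (0.05 ± 0.17, adjusted p = 0.967). Slc6a12, the betaine transporter gene, had no counts at either time and stood at 3.92 and 6.83 CPM at 24 h.

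The enzyme that makes sorbitol from glucose was less certain. Akr1b3, aldose reductase, rose by 1.06 ± 0.23 on the log2 scale (26 and 32.6 to 57.5 and 65.5 CPM, adjusted p = 0.0172), but 93.9% of its counts in the 4 libraries lay on transcripts annotated as retained intron, and without these the adjusted p was 0.765. Nfat5 itself had 1.49 and 2.94 CPM at 0 h and 4.18 and 1.04 CPM at 6 h, all on such transcripts. Slc5a3 and Slc38a2 kept their calls in every alternative fit, whereas Aqp3, Atp1b1 and Akr1b3 lost theirs in at least 1, with adjusted p up to 0.232, 0.145 and 0.783. When a library was left out, 2 members of the list rose in each of the 4 fits.

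Targets of p53 had the highest share of calls among the pathway lists. Of 33 tested members 16 rose (48.5%) and none fell, all 33 log2 fold changes were positive, and their median was 2.06 against 0.05 over all genes. Leaving out 1 of the 4 libraries left 7 to 9 members that rose, and library totals alone left 13. Trp53, the gene of p53 itself, stood at 15.3 and 12.1 CPM at 0 h and at 12.5 and 15.3 CPM at 6 h (adjusted p = 1), with all its counts on transcripts annotated as noncoding.

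Regulators of the cell cycle were among those that rose. Plk2, a polo-like kinase, stood at 27.2 and 31.2 CPM at 0 h and at 2152 and 2029 CPM at 6 h (6.15 ± 0.58, adjusted p = 0.000171). Btg2, an antiproliferative cofactor of mRNA deadenylation, went from 72.9 and 64 to 434 and 495 CPM (2.77 ± 0.28, adjusted p = 6.71e-05). Ccng1, a cyclin G, went from 544 and 533 to 2361 and 2034 CPM (adjusted p = 0.00604). No 0 h library reached the level of a 6 h library in these 3 genes. Cdkn1a, the CDK inhibitor p21, had no counts in replicate 1 and 0.679 CPM in replicate 2 at 0 h and 31.6 and 36.9 CPM at 6 h (6.11 ± 0.94, adjusted p = 0.00171). Of its counts 87% lay on a transcript annotated as noncoding, and with protein-coding transcripts alone it stood at 4.56 (adjusted p = 0.103). Another gene model, AC167363.2, overlaps it on the other strand and rose too (means of 0.509 and 19.5 CPM at 0 h and 6 h, adjusted p = 0.00965). Reads of either may have been counted for the other.

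Genes that feed back on p53 rose in parallel. Mdm2, the ubiquitin ligase that degrades p53, went from 7.81 and 11 to 103 and 100 CPM (3.40 ± 0.48, adjusted p = 0.000941), with 89% of its counts on retained-intron transcripts. Its relative Mdm4 went from 324 and 326 to 915 and 920 CPM, and Ppm1d, a phosphatase that switches p53 signalling off, from 63.2 and 58.8 to 264 and 261 CPM (2.11 ± 0.23, adjusted p = 9.53e-05). Among death genes, Bbc3, which encodes the BH3-only protein PUMA, went from 6.7 and 10.4 to 83.9 and 104 CPM (3.41 ± 0.63, adjusted p = 0.00559), and Eda2r, a TNF receptor family member, from 245 and 260 to 2114 and 1723 CPM (adjusted p = 0.00404). The other 7 that rose were Ddit4, Sesn2, Phlda3, Perp, Zmat3, Trp53inp1 and Cd80. Pmaip1, the gene of NOXA, had too few counts to be tested.

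In the BCL2 family and caspase list 3 of 21 tested genes rose (14.3%, against 3.22% of all genes) and none fell. Beside Bbc3 they were Bcl2l11, another BH3-only gene (17.9 and 23.1 to 69 and 82.2 CPM, adjusted p = 0.00295), and Mcl1, which encodes a protein that protects from death (1277 and 1339 to 2971 and 2761 CPM, adjusted p = 0.000231). Genes on both sides of the death decision thus rose in the same libraries. Bax stood at a log2 fold change of 1.1 and did not pass.

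The promoters of Plk2 and Btg2 are shown because both hold the palindrome TGACGTCA, the cyclic AMP response element. The sequences are from RefSeq (GRCm38.p6), run 5′ to 3′ along the gene's strand, cover the 250 bases before the annotated start, and have the element in capitals. They lie at chr13:110394794-110395043 on the plus strand and at chr1:134079156-134079405 on the minus strand.
Plk2: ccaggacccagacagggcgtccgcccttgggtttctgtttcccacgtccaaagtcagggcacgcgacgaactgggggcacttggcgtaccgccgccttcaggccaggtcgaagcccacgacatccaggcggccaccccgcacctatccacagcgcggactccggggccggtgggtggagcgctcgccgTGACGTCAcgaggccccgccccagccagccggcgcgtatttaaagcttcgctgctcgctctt
Btg2: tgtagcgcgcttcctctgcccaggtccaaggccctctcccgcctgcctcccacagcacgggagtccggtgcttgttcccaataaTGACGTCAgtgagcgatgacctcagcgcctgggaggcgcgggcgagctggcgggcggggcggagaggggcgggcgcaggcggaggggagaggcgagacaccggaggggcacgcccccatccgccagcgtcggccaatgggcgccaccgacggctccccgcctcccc
The element begins 62 bases before the start in Plk2 and 166 bases before it in Btg2. In windows that reach from 250 bases before to 50 after the start it was found for 4.53% of 397 genes that rose and had a promoter in the table, for 5.70% of 158 that fell, for 3.42% of 10659 tested, and in 1.79% of all 32851 windows. The share was no higher among the genes that rose than among those that fell.

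Phosphatases that switch MAP kinases off were among the called genes. Of 21 genes for MAP kinase phosphatases and stress kinases 4 rose (19%) and none fell, all of them dual-specificity phosphatases, and 3 or 4 rose when a library was left out. Dusp2 stood at 0.744 and 0.339 CPM at 0 h and at 37.6 and 34 CPM at 6 h (6.23 ± 0.72, adjusted p = 0.00018). Dusp10, which acts on the kinases JNK and p38, went from 7.81 and 7.58 to 67.2 and 72.3 CPM (3.18 ± 0.47, adjusted p = 0.00128). Dusp4, an ERK phosphatase of the nucleus, went from 24.2 and 19.2 to 141 and 173 CPM, and Dusp5 from 14.9 and 11.5 to 60.7 and 75.2 CPM. The groups of each of the 4 genes were separate. Dusp1 lay at 3.35 and 5.09 CPM at 0 h and at 3.18 and 4.35 CPM at 6 h (adjusted p = 0.973), with 85.1% of its counts on retained-intron transcripts.

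Of 21 immediate-early genes tested, 3 rose (14.3%, against 3.22% of all genes) and none fell. Ier5 went from 21.2 and 14.6 to 205 and 197 CPM (3.52 ± 0.26, adjusted p = 2.51e-06), Klf6 from 75.5 and 94.9 to 244 and 187 CPM (adjusted p = 0.00125), and Fos from 16.4 and 10.5 to 46.5 and 41.9 CPM (adjusted p = 0.0115). Jun was at 24.6 and 17.1 CPM at 0 h and at 28.1 and 44.8 CPM at 6 h (0.83 ± 0.31, adjusted p = 0.166). Egr1 and Atf3 had too few counts to be tested. In the NF-kB list 2 of 12 rose, of which Nfkbia, the gene of the inhibitor IkBa, went from 22.3 and 16.7 to 219 and 173 CPM (3.35 ± 0.27, adjusted p = 6.22e-06) and the adhesion gene Icam1 from 301 and 241 to 711 and 803 CPM (adjusted p = 0.0121). Ptgs2, the gene of cyclooxygenase 2, was named after its values were seen and went from 4.46 and 1.24 to 36.1 and 33.8 CPM (adjusted p = 0.000348).

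**Figure D2:**
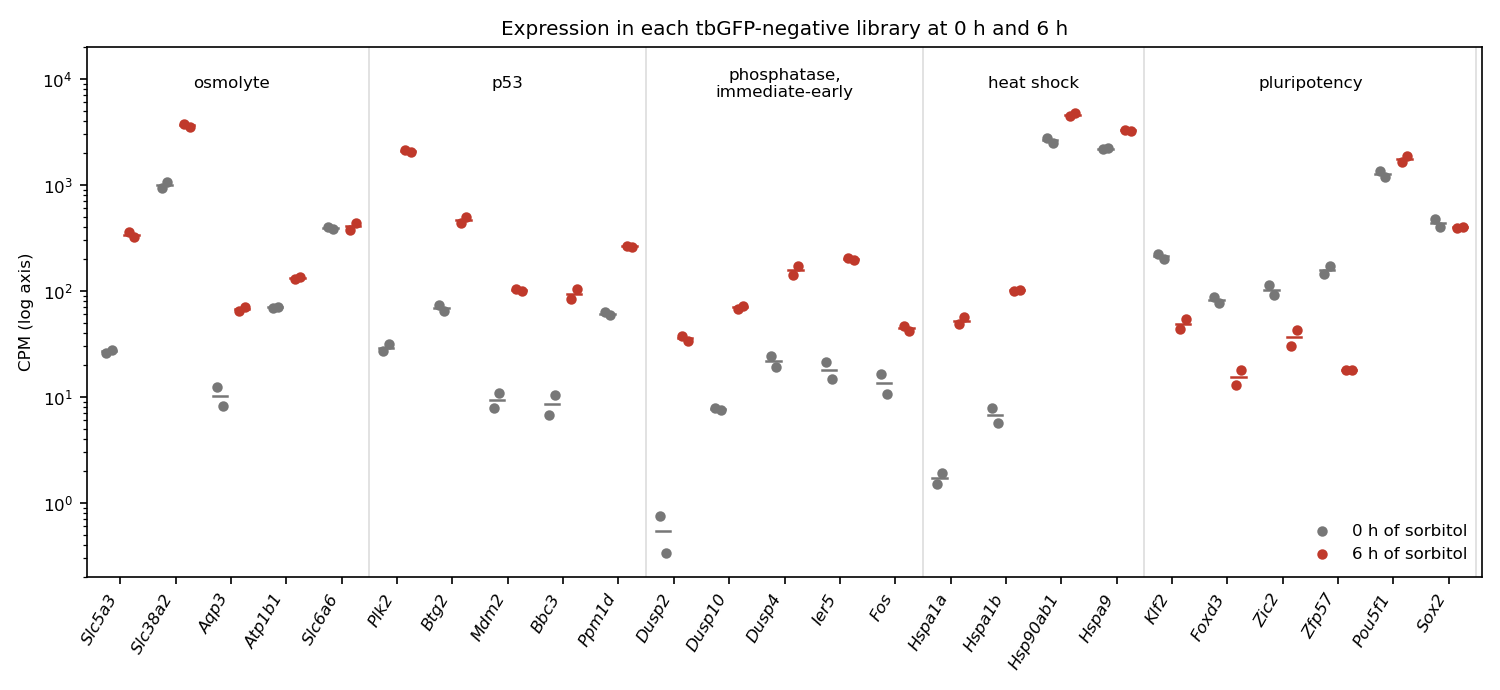
CPM of each tbGFP-negative library (points, log axis) at 0 h (grey) and 6 h (red), with group means as short lines, for genes of 5 groups. Plk2 moves from 27.2 and 31.2 to 2152 and 2029 CPM, Klf2, Foxd3, Zic2 and Zfp57 lie lower at 6 h, and the Slc6a6 libraries overlap.

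Protein quality control rose in steps of very different size. Of 27 heat shock and chaperone genes 6 rose and none fell, 2 in each fit that left out a library and 2 with library totals alone. The 6 were 22.2% of the list, against 3.22% of all genes. The inducible HSP70 genes changed most. Hspa1a went from 1.49 and 1.92 to 48.1 and 56.4 CPM (4.86 ± 0.46, adjusted p = 3.14e-05), and Hspa1b from 7.81 and 5.66 to 99.6 and 103 CPM (3.96 ± 0.28, adjusted p = 1.92e-06). The other 4 encode abundant chaperones and rose by less than 2-fold: Hsp90ab1 went from 2774 and 2476 to 4420 and 4733 CPM (0.80 ± 0.16), Hspa9 of the mitochondrial matrix from 2161 and 2205 to 3314 and 3253 CPM (0.59 ± 0.12), the co-chaperone Stip1 from 2241 and 2199 to 3059 and 3219 CPM, and the mitochondrial Hspd1 from 3783 and 3816 to 5784 and 4908 CPM. Their 6 h levels lay above their 0 h levels in every library, but all 4 lost their calls in at least 1 alternative, with adjusted p up to 0.657. Hsph1 (0.10 ± 0.34, adjusted p = 0.958) and the regulator gene Hsf1 did not pass. Of the counts of Hsph1 74.7% lay on retained-intron transcripts, so they say little of its coding transcripts.

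Hspa1a and Hspa1b are neighbours with near-identical sequence, so how their reads were divided is uncertain. Their promoters are shown to make that likeness visible, again the 250 bases before the start from RefSeq (GRCm38.p6), at chr17:34972157-34972406 and chr17:34959239-34959488 on the minus strand, with the CCAAT box in capitals as ATTGG, its form on the other strand.
Hspa1a: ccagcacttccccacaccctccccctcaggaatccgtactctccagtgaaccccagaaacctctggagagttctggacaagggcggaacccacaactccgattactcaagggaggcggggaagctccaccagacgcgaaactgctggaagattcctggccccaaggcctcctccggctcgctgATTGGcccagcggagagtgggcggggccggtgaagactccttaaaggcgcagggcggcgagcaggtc
Hspa1b: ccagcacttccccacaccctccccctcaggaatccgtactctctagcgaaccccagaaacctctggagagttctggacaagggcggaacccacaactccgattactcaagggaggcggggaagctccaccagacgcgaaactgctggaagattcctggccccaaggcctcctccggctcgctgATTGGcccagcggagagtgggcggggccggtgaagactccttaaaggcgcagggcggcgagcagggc
Of the 250 bases 247 are the same. A CCAAT box was found for 47.6% of the genes that rose, 51.3% of those that fell and 42.9% of those tested. A strict form of the heat shock element (3 alternating repeats) was found for 1 of the 397 genes that rose, none of the 158 that fell and 63 of the 10659 tested, searching both strands. Elements with an imperfect repeat were not searched for, so genes without a match, HSP70 genes among them, may still hold one.

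In the endoplasmic reticulum the response was partial. Of 16 genes of the unfolded protein response 4 rose (25%) and none fell, but none or 1 rose when a library was left out. Dnajb9, a co-chaperone of the reticulum, went from 24.9 and 26.5 to 96.9 and 64 CPM (1.64 ± 0.25, adjusted p = 0.00171). The sensor gene Atf6 went from 268 and 267 to 541 and 523 CPM (adjusted p = 0.00299) and the calreticulin gene Calr from 286 and 290 to 531 and 449 CPM, while Creld2 was near the threshold (adjusted p = 0.0453). Hspa5, the chaperone BiP, did not pass, with a log2 fold change of -1.1.

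Genes that respond to oxidants through NRF2 rose in 4 of 23 cases (17.4%, against 3.22% of all genes), and none fell. Gclc, the catalytic subunit of glutathione synthesis, went from 107 and 98.2 to 381 and 403 CPM (1.94 ± 0.32, adjusted p = 0.00284). Hmox1, heme oxygenase 1, went from 176 and 158 to 353 and 397 CPM, the thioredoxin gene Txn1 from 596 and 621 to 960 and 960 CPM. Nfe2l2, the gene of NRF2 itself, rose from 240 and 241 CPM by 0.69 ± 0.17 on the log2 scale (adjusted p = 0.0278). All 4 were higher in both 6 h libraries, and none to 2 of them rose when a library was left out. Txnip, an inhibitor of thioredoxin, had no counts at 0 h and 0.836 and 0.414 CPM at 6 h, at least 2.49-fold higher (adjusted p = 0.319).

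Targets of ATF4, the factor of the integrated stress response, split. Of 31 tested genes 2 rose and 2 fell (6.45% each, against 3.22% and 1.21% of all genes), with a median log2 fold change near 0. The genes that rose restrain growth signalling and are also p53 targets. Ddit4 (REDD1), an inhibitor of mTORC1, went from 120 and 115 to 622 and 683 CPM (2.47 ± 0.30, adjusted p = 0.000236), and Sesn2, a leucine sensor that also inhibits mTORC1, from 527 and 489 to 1742 and 2218 CPM (1.96 ± 0.42, adjusted p = 0.0213). Chac1, a glutathione-degrading enzyme, went the other way, from 120 and 96 to 19.7 and 20.3 CPM (-2.43 ± 0.40, adjusted p = 0.00295). Pck2, a mitochondrial enzyme of gluconeogenesis, fell too, but 58% of its counts lay on retained-intron transcripts and without them it stood at -2.88 (adjusted p = 0.182). Trib3 did not pass (-0.57 ± 0.29, adjusted p = 0.334), nor did Asns (-0.26), Psat1 (0.15) or Atf4 (0.16). Of the counts of Atf4 70.7% lay on retained-intron transcripts.

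Chac1 is one of few genes with the composite site of C/EBP and ATF factors (TGATGCAA on either strand) in its promoter, so its sequence is given with the site in capitals, as TTGCATCA, at chr2:119350992-119351241 on the plus strand (RefSeq, GRCm38.p6).
Chac1: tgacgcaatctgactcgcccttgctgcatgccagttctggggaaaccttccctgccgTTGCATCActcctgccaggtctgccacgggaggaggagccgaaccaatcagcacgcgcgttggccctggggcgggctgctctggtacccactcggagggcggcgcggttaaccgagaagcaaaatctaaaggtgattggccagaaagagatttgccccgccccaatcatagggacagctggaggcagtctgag
The site was found for 2 of the 158 genes that fell, 1 of the 397 that rose and 79 of the 10659 tested.

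Genes of nutrient and energy sensing were called in 1 direction in the main fit. In the mTOR and FOXO list 6 of 21 genes rose (28.6%) and none fell, and 3 rose in each fit without 1 library. The log2 fold changes of 14 of the 21 were positive. With library totals alone 4 rose and 1 fell. Ddit4l, a relative of Ddit4 that also belongs to the 2-cell list, went from 8.18 and 6 to 78.5 and 63.4 CPM (3.38 ± 0.25, adjusted p = 2.51e-06). Foxo3, a transcription factor of starvation and stress, went from 148 and 161 to 420 and 478 CPM (1.54 ± 0.21, adjusted p = 0.000575), and Foxo4 from 95.6 and 121 to 181 and 190 CPM. With Ddit4 and Sesn2, already described among the p53 and ATF4 targets, the arrestin gene Arrdc4 completed the 6 (0.65 ± 0.15, adjusted p = 0.0256). In the autophagy list 3 of 23 rose (13%, against 3.22% of all genes): Atg12 (158 and 137 to 367 and 341 CPM), Gabarap (1.49 and 2.38 to 33.3 and 30.5 CPM) and the lysosomal protease gene Ctsb (87.1 and 106 to 179 and 193 CPM).

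The nucleolus and its noncoding RNAs moved as well. Of 29 ribosome biogenesis genes 5 rose and none fell, 2 in each fit without 1 library and 2 with library totals alone. The 5 were 17.2% of the list, against 3.22% of all genes. Ncl, nucleolin, had a mean of 609 CPM at 0 h and stood at 1775 and 1644 CPM at 6 h (1.49 ± 0.20, adjusted p = 0.000568). Npm1 went from 500 and 552 to 1054 and 1009 CPM, Rrn3, an initiation factor of RNA polymerase I, from 1477 and 1354 to 2429 and 2256 CPM, and the helicase gene Ddx21 from 2448 and 2335 to 3806 and 3612 CPM. Taf1d also rose, with 91% of its counts on retained-intron transcripts. Of 77 cytosolic ribosomal protein genes 3 rose and none fell (3.90%, close to the 3.22% of all genes), with a median of -0.11.

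Long noncoding RNAs changed in both directions. In a list of snoRNA hosts and nuclear RNAs 5 of 19 rose (26.3%, against 3.22% of all genes) and 3 fell (15.8%, against 1.21%). Snhg14 is the long host of the imprinted Snord116 and Snord115 clusters and was named after its values were seen (ENSMUSG00000100826.6, chromosome 7, minus strand). It stood at 30.5 and 37.4 CPM at 0 h and at 180 and 184 CPM at 6 h (2.41 ± 0.26, adjusted p = 0.000103). Of 12 snoRNA genes that lie inside it on its strand and were tested, 7 rose. Among them Gm26270 had 11 counts in both 0 h libraries and 1039 in both 6 h libraries (6.62 ± 0.38, adjusted p = 3.19e-07). That was the smallest adjusted p of the comparison, shared with the noncoding RNA 1110038B12Rik (3.56 ± 0.20, named after its values were seen). Snord116l16 had none and 795, at least 283-fold higher, and Snord116l11 had 1 and 135, or 144 times as much after scaling (25.4 to 5728 by counting error at 95%). Copies of this cluster are near-identical, so the split of reads among them is uncertain, and 1 to 4 of the 12 rose when a library was left out.

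Over all snoRNA genes, a class chosen after its values were seen, 13 of 161 rose (8.07%, against 3.22% of all genes) and none fell. The 13 include those inside Snhg14 counted above. Transcripts typed as snoRNA took 0.145% and 0.163% of counts at 0 h and 0.229% and 0.244% at 6 h. Other hosts rose too: Rian, of the imprinted Dlk1-Dio3 region, went from 107 and 129 to 695 and 536 CPM (2.38 ± 0.20, adjusted p = 8.82e-06), and Gas5 from 69.6 and 73.5 to 284 and 270 CPM (1.95 ± 0.17, adjusted p = 1.19e-05), with 99.8% of the counts of Gas5 on retained-intron transcripts. Neat1, the scaffold of paraspeckles, went from 169 and 130 to 302 and 363 CPM (adjusted p = 0.00245). In the same imprinted region as Rian, however, the microRNA host Mirg fell from 61.8 and 77.4 to 25.1 and 22.2 CPM (adjusted p = 0.0087) and Rtl1 from 251 and 274 to 109 and 144 CPM (adjusted p = 0.00761). Kcnq1ot1, an imprinted antisense RNA that silences its neighbours, fell from 1061 and 1087 to 502 and 505 CPM (-1.09 ± 0.18, adjusted p = 0.00273), and Firre, a nuclear organising RNA, from 75.9 and 69.7 to 15.4 and 13.9 CPM (adjusted p = 0.0316). Rian, Gas5, Snhg14 and Kcnq1ot1 kept their calls in every alternative, and Neat1, Mirg, Rtl1 and Firre did not, with adjusted p up to 0.246.

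**Figure D3:**
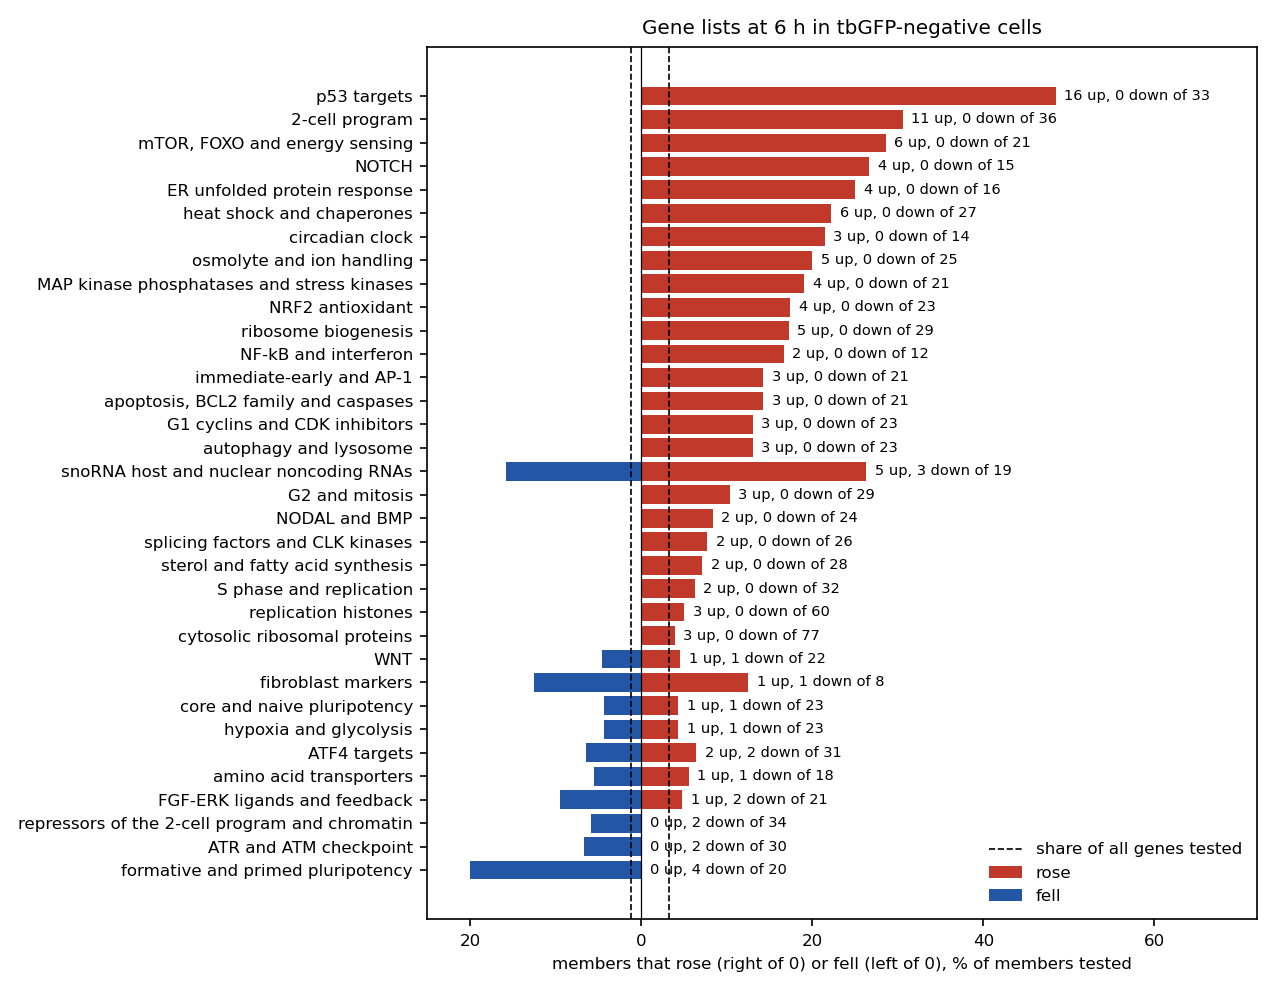
Share of tested members of each gene list that rose (red, right of 0) or fell (blue, left of 0) at 6 h in tbGFP-negative cells, for lists with at least 2 calls, with counts at the right. Dashed lines mark the shares over all genes tested, 3.22% up and 1.21% down, and the p53 list has the longest red bar at 16 of 33.

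Most core pluripotency factors did not pass the test at 6 h. Of 23 tested genes of the core and naive list 1 rose and 1 fell (4.35% each, against 3.22% and 1.21% of all genes). Pou5f1 stood at 1638 and 1864 CPM at 6 h (0.45 ± 0.27, adjusted p = 0.439), Sox2 at 391 and 403 CPM (-0.14 ± 0.17, adjusted p = 0.762) and Nanog at 10.4 and 8.7 CPM (-0.42 ± 0.41, adjusted p = 0.695). Klf2, a naive-state factor, fell from 223 and 200 to 43.3 and 54.7 CPM (-2.11 ± 0.23, adjusted p = 9.38e-05), while its relative Klf4 went from 200 and 195 to 260 and 304 CPM and did not pass (adjusted p = 0.185). Dppa5a rose slightly (0.56 ± 0.13, adjusted p = 0.0239), a call lost in 10 alternatives (adjusted p up to 0.393). No gene of the LIF and STAT3 list was called. With the 6 tbGFP-negative libraries alone 5 rose and 4 fell of 22 in the core and naive list and 3 rose and 3 fell of 12 in the LIF list, and Pou5f1 and Klf4 were each called in 2 alternatives (adjusted p down to 0.00186 and 0.00277).

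Among genes of the later, formative state 4 of 20 tested members fell (20%, against 1.21%) and none rose, 16 of the 20 log2 fold changes were not positive, and the median was -0.78. Foxd3 went from 86.7 and 77.3 to 13 and 17.8 CPM (-2.41 ± 0.50, adjusted p = 0.0116), Zic2 from 113 and 92.3 to 30.2 and 42.5 CPM (adjusted p = 0.00897) and Zic5 from 68.5 and 67 to 26.2 and 24 CPM (adjusted p = 0.0181). Fgf15 went from 36.8 and 39.6 to 8.02 and 8.7 CPM (-2.19 ± 0.37, adjusted p = 0.0032). With a library left out, none to 2 of the 20 fell.

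Signalling genes around pluripotency gave a mixed picture. In the FGF-ERK list Fgf15 and the ERK antagonist Spry4 fell (Spry4 from 446 and 465 to 154 and 179 CPM, -1.45 ± 0.19, adjusted p = 0.000396), while the phosphatase gene Dusp4, described above, rose. In the NOTCH list 4 of 15 rose (26.7%) and none fell. They were the ligand Dll1 (16.7 and 9.73 to 96.8 and 88.7 CPM, 2.86 ± 0.31, adjusted p = 0.000103) and the target genes Hes1, Hey1 and Hey2. Library totals alone gave 3 that rose and 3 that fell, and protein-coding transcripts alone 4 and 2. Dll1 kept its call in every alternative, and Hes1, Hey1 and Hey2 did not. Bambi, a pseudoreceptor that dampens BMP and activin signals, rose (49.1 and 38.6 to 105 and 108 CPM, adjusted p = 0.00445). Inhbb, an activin subunit gene, fell from 129 and 114 to 27.7 and 27.1 CPM (adjusted p = 0.00147) and Gli2, a Hedgehog factor, from 154 and 146 to 39.9 and 40.2 CPM (adjusted p = 0.00335), both named after their values were seen.

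Among chromatin genes 2 of 34 fell (5.88%, against 1.21% of all genes) and none rose. They were Zfp57 and Tet2. Tet2 had 96% of its counts on retained-intron transcripts, and without such transcripts 1 of 26 members fell. Zfp57, a KRAB zinc finger that keeps DNA methylation at imprinted loci (ENSMUSG00000036036.15, chromosome 17, plus strand), stood at 145 and 170 CPM at 0 h and at 17.7 and 18 CPM at 6 h (-3.14 ± 0.26, adjusted p = 6.88e-06), a call kept in every alternative. It was not the only zinc finger gene. Of 285 protein-coding genes named Zfp with a number, a family chosen after its values were seen, 33 fell (11.6%) and 6 rose (2.11%), and the median was -0.56. Zfp866 went from 92.6 and 109 to 34.8 and 34.8 CPM (-1.54 ± 0.24, adjusted p = 0.00204), Zfp59 from 111 and 104 to 36.3 and 32.7 CPM, Zfp626 from 115 and 132 to 48 and 41.6 CPM and Zfp936 from 356 and 428 to 203 and 170 CPM. An exception was Zfp568, a repressor of an imprinted Igf2 transcript, which rose from 481 and 484 to 1083 and 1050 CPM (1.14 ± 0.18, adjusted p = 0.00225). Without 1 of the 4 libraries 3 to 11 of the 285 fell and none to 2 rose, and with library totals alone 63 fell.

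Other abundant transcripts fell as well. Ago2, the slicing Argonaute of RNA interference, went from 688 and 728 to 230 and 278 CPM (-1.48 ± 0.17, adjusted p = 0.000167). Nipbl, which loads cohesin, went from 902 and 915 to 546 and 533 CPM (adjusted p = 0.00722), the actin regulator Enah from 753 and 824 to 436 and 390 CPM (adjusted p = 0.00336), and the laminin gene Lamc1 from 1874 and 1899 to 1115 and 1373 CPM (adjusted p = 0.0452). In the ATR and ATM checkpoint list none of 30 rose and 2 fell (6.67%, against 1.21% of all genes). Mdc1, a scaffold at DNA breaks, went from 415 and 509 to 192 and 239 CPM (-1.10 ± 0.23, adjusted p = 0.0113). Atr went from 10.8 and 13 to 2.51 and 1.66 CPM (adjusted p = 0.0362), but every one of its counts lay on retained-intron transcripts, so the deposited counts say nothing of its coding transcript. Of these 6 genes Ago2 alone kept its call in every alternative.

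Cell cycle genes were called at shares above the 3.22% of all genes, but this did not hold for whole lists. In the G1 list 7 of 23 log2 fold changes were positive, and the median was -0.35. Of 23 genes for G1 cyclins and CDK inhibitors 3 rose (13%): beside Cdkn1a they were Rb1 (14.1 and 13.8 to 42.4 and 32.9 CPM) and Cdkn2b, the inhibitor p15 (10.8 and 5.2 to 46 and 53 CPM, adjusted p = 0.0368). The cyclin genes Ccnd1 (145 and 144 against 144 and 131 CPM) and Ccne1 (372 and 353 against 373 and 369 CPM) did not pass. Among S phase genes Pcna, the sliding clamp of replication, rose (137 and 121 to 229 and 297 CPM, adjusted p = 0.00848), and in G2 and mitosis Hmmr (922 and 901 to 1844 and 1635 CPM), Nek2 and Kif11 rose of 29 (10.3%). The mitosis list had a median of 0.22, and with library totals alone 1 of its genes rose and 3 fell. Library totals alone left none of the S phase calls, and leaving out a library left none or 1 in each of the S phase and mitosis lists.

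Of 60 histone genes 3 rose (5%, against 3.22% of all genes). Hist1h2aa and Hist1h2ba, a histone H2A and H2B pair best known from testis, went from 17.9 and 31.8 to 423 and 362 CPM (3.94 ± 0.27, adjusted p = 1.71e-06) and from 27.2 and 28.8 to 367 and 334 CPM (3.64 ± 0.27, adjusted p = 2.51e-06). Hist1h1t, the testis linker histone, went from 30.1 and 35.7 to 157 and 159 CPM (2.25 ± 0.26, adjusted p = 0.000167). All 3 rose in each of the 4 fits that left out a library. The other 57 were not called, and the median of all 60 was 0.25.

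Of 36 tested members of the 2-cell program, which the sort selects against, 11 rose and none fell, 2 to 6 when a library was left out and 6, with 1 that fell, on library totals alone. The 11 were 30.6% of the list, against 3.22% of all genes. The summed level of the list went from 62.5 to 195 CPM, of which Ddit4l, described above, held the largest part among those that rose. Zscan4c, with overlapping groups, lay at 4.09 and 12.3 CPM at 0 h and at 17.4 and 9.12 CPM at 6 h (0.54 ± 0.33, adjusted p = 0.451). Zscan4d went from 4.84 and 9.05 to 18.2 and 15.5 CPM (1.17 ± 0.21, adjusted p = 0.00519), Gm5662 from 3.72 and 8.03 to 15.5 and 16.4 CPM (adjusted p = 0.00475) and Usp17lc from no counts to 1.5 and 0.414 CPM, at least 3.91-fold higher. The part of tbGFP-positive cells left in the negative sort was not tested.

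Genes hardly detected at 0 h supplied the largest fold changes. By fitted fold change the 10 largest increases with a mean of at least 10 CPM at 6 h included 5 without any count at 0 h: Snord116l16 above, the myosin gene Myh15 (22.2 and 27.6 CPM at 6 h, at least 94.6-fold higher), the cytochrome P450 gene Cyp2c65 (22.7 and 25.5 CPM, at least 92.1-fold), Rgcc, a regulator of the cell cycle (24.2 and 15.3 CPM, at least 77.9-fold), and the F-box gene Fbxo39 (11.9 and 9.53 CPM, at least 41.6-fold). Tph2, the neuronal tryptophan hydroxylase that makes serotonin, went from none and 0.452 to 42.3 and 45.2 CPM (6.97 ± 0.73, adjusted p = 8.06e-05). The complement gene C3 had 2 counts at 0 h and was 132 times as high at 6 h (36.1 to 1094 by counting error at 95%), and the endosomal receptor gene Tlr13 went from none and 0.452 to 25.6 and 26.1 CPM (adjusted p = 0.000539). Outside the rule, Tent5c, a poly(A) polymerase gene, went from 5.95 and 6.56 to 209 and 235 CPM (5.13 ± 0.44, adjusted p = 9.97e-06), and Foxj1, the master factor of motile cilia, from 9.67 and 6.9 to 235 and 255 CPM (4.93 ± 0.51, adjusted p = 6.71e-05). Of these genes Tph2, Tlr13, Tent5c and Foxj1 kept their calls in every alternative.

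In the short lists of markers of other cells single genes were called. Of 9 primitive endoderm markers 1 rose (11.1%; Cubn, 11.2 and 15.3 to 56.8 and 58.2 CPM), of 8 trophectoderm markers 1 rose (12.5%, Krt8), of 8 fibroblast markers 1 rose and 1 fell (12.5% each), and none of 6 mesoderm, 5 neural and 5 germline markers was called. Over all genes 3.22% rose and 1.21% fell. The median log2 fold changes were 1.06, 0.85, 0.86, 0.42, -0.59 and 1.57 in that order of lists. Their summed share of library totals was 0.0293% and 0.0304% at 0 h and 0.0221% and 0.0264% at 6 h for primitive endoderm. For fibroblasts it was 0.0127% and 0.0134% at 0 h and 0.0079% and 0.00902% at 6 h. As shares of library totals both were lower at 6 h without overlap. With TMM factors the summed mean CPM of tested members went from 252 to 258 for primitive endoderm and from 110 to 89.5 for fibroblasts. For trophectoderm it was 0.00971% and 0.00812% at 0 h and 0.00927% and 0.00898% at 6 h. It was 0.00147% and 0.00112% at 0 h and 0.00208% and 0.00226% at 6 h for mesoderm, higher without overlap. For neural markers it was 0.0118% and 0.00874% at 0 h and 0.0056% and 0.00672% at 6 h, lower without overlap. Cdx2, which defines trophectoderm, was at 0.11 and 0.41 CPM on average and Gata6, of primitive endoderm, at 1.2 and 1.16 CPM. Their part in the results was not tested.

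Transcripts annotated as retained intron carried most of the largest decreases, though not most decreases. Of the 10 largest decreases 8 belonged to genes with over 50% of their counts on transcripts annotated as retained intron, against none of the 10 largest increases. Tet2, a DNA demethylase gene, went from 41.7 and 46.1 to 5.51 and 4.35 CPM (-3.15 ± 0.38, adjusted p = 0.000231), with 96% of its counts on such transcripts, and without them it was at -0.69 (adjusted p = 0.924). Trim26 (13.8 and 15.5 to 1.34 and none), Mum1 (22.3 and 26.6 to 1 and 2.69), Ccdc77 (13.8 and 18 to 1.34 and 1.24) and Xlr3a (8.93 and 14.9 to 0.501 and 0.622 CPM) had 98.6% or more there. Aire, the autoimmune regulator gene, had 86% on a transcript annotated as a target of nonsense-mediated decay.

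Shares of library totals, to which no TMM factors apply, also differed. On that scale retained-intron transcripts took 2.91% and 3.48% of counts at 0 h and 2.31% and 2.58% at 6 h. They took 4.44% and 4.51% at 24 h, so the 3 times did not overlap. Transcripts typed as processed transcript took the same course (0.984% and 1.13% at 0 h, 0.895% and 0.966% at 6 h, 1.31% and 1.34% at 24 h). So did targets of nonsense-mediated decay (0.26% and 0.312%, 0.239% and 0.254%, 0.336% and 0.348%). These shares were not tested. The TMM factors were 1.166 and 1.205 at 0 h and 0.9097 and 0.9576 at 6 h. Scaled by them, the 6 h shares gain on those at 0 h, so 6 h lying below 0 h without overlap holds for library totals only. Tested one by one, 6706 retained-intron transcripts had a median log2 fold change of -0.50, and 30 rose and 40 fell (0.447% and 0.597%, against 1.60% and 1.09% of all transcripts). Protein-coding transcripts had a median of 0.00, with 2.64% that rose and 1.83% that fell. Negative medians were not particular to retained introns: processed transcripts had -0.30 and targets of nonsense-mediated decay -0.32, against -0.09 over all transcripts. Processed pseudogenes (0.20), snRNAs (0.18) and snoRNAs (0.52) had positive ones. Among tested protein-coding genes 2531 of 12386 had over 50% of counts on retained-intron transcripts (20.4%), against 29 of 187 that fell (15.5%) and 27 of 473 that rose (5.71%), so both called groups lay below the share of all tested. The median log2 fold change was -0.27 in those and 0.10 in the others. When these transcripts were left out 794 genes were called, and with protein-coding transcripts alone 401 rose and 248 fell.

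**Figure D4:**
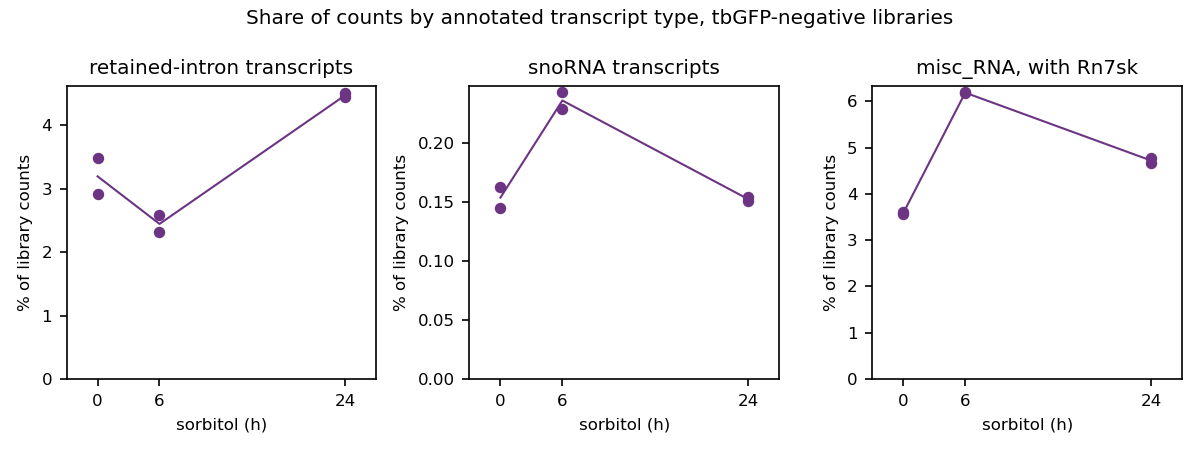
Share of all counts (%) on transcripts annotated as retained intron, as snoRNA and as misc_RNA (which holds Rn7sk) in the 6 tbGFP-negative libraries (points) by hours of sorbitol, with group means joined. Shares are of library totals, without TMM factors. On that scale retained-intron counts are lowest at 6 h and highest at 24 h, and the other 2 classes are highest at 6 h.

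Libraries of the same fraction at 24 h showed how long these levels lasted. The comparison of 24 h with 6 h shares the 6 h libraries with the one above, so values are given side by side. In it 1534 genes differed (7.91%), of which 833 were lower (4.30%) and 701 higher (3.62%) at 24 h. That balance depended on the scaling: library totals alone gave 308 lower and 1389 higher, and upper-quartile factors 1110 lower and 596 higher. Against 0 h, sharing those libraries in turn, 774 differed (3.99%), 524 higher (2.70%) and 250 lower (1.29%). Some early genes stood far lower again. Plk2 at 212 and 215 CPM, Tent5c at 16.8 and 16.7 and Nfkbia at 40.7 and 49.5 CPM still lay above their 0 h libraries. Dll1 stood at 3.92 and 4.04 CPM, below its 0 h level, and Hmox1 at 57.3 and 58.3 CPM, also below its own. In these 5 genes the 24 h level was under the 6 h level with adjusted p from 1.03e-06 to 0.00192. Of the 5 osmolyte genes that rose, Slc38a2 was lower again at 24 h, at 1444 and 1455 CPM (-1.33 ± 0.17, adjusted p = 0.000163 against 6 h). The other 4 did not pass against 6 h, with Akr1b3 at 84.2 and 94.7 CPM, Slc5a3 at 311 and 310 CPM (-0.13, adjusted p = 0.812 against 6 h), Aqp3 at 71.7 and 62.4 CPM and Atp1b1 at 134 and 127 CPM. Btg2 (391 and 385 CPM), Perp (189 and 174 CPM) and Fos (61.4 and 57.1 CPM) also did not pass against 6 h.

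Genes that had fallen took several courses. Zfp57 stood at 199 and 230 CPM at 24 h (3.58 ± 0.26 against 6 h, adjusted p = 9.85e-07), Tet2 at 40 and 36.4, Spry4 at 354 and 400 and Zfp866 at 128 and 124 CPM, above the 0 h libraries for Zfp57 and Zfp866 and under them for Tet2 and Spry4. Ago2 at 209 and 220 CPM and Mdc1 at 176 and 191 CPM stayed low. Chac1 (6.29 and 3.67 CPM), Fgf15 (2.68 and 3.29 CPM) and Zic2 (14.7 and 15.2 CPM) lay lower still than at 6 h (adjusted p = 0.00784, 0.0283 and 0.016). Zscan4d, by contrast, was at 232 and 204 CPM. Pou5f1 was at 675 and 677 CPM, below its 6 h level (adjusted p = 0.00586) and not past the threshold against 0 h (adjusted p = 0.0846).

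**Figure D5:**
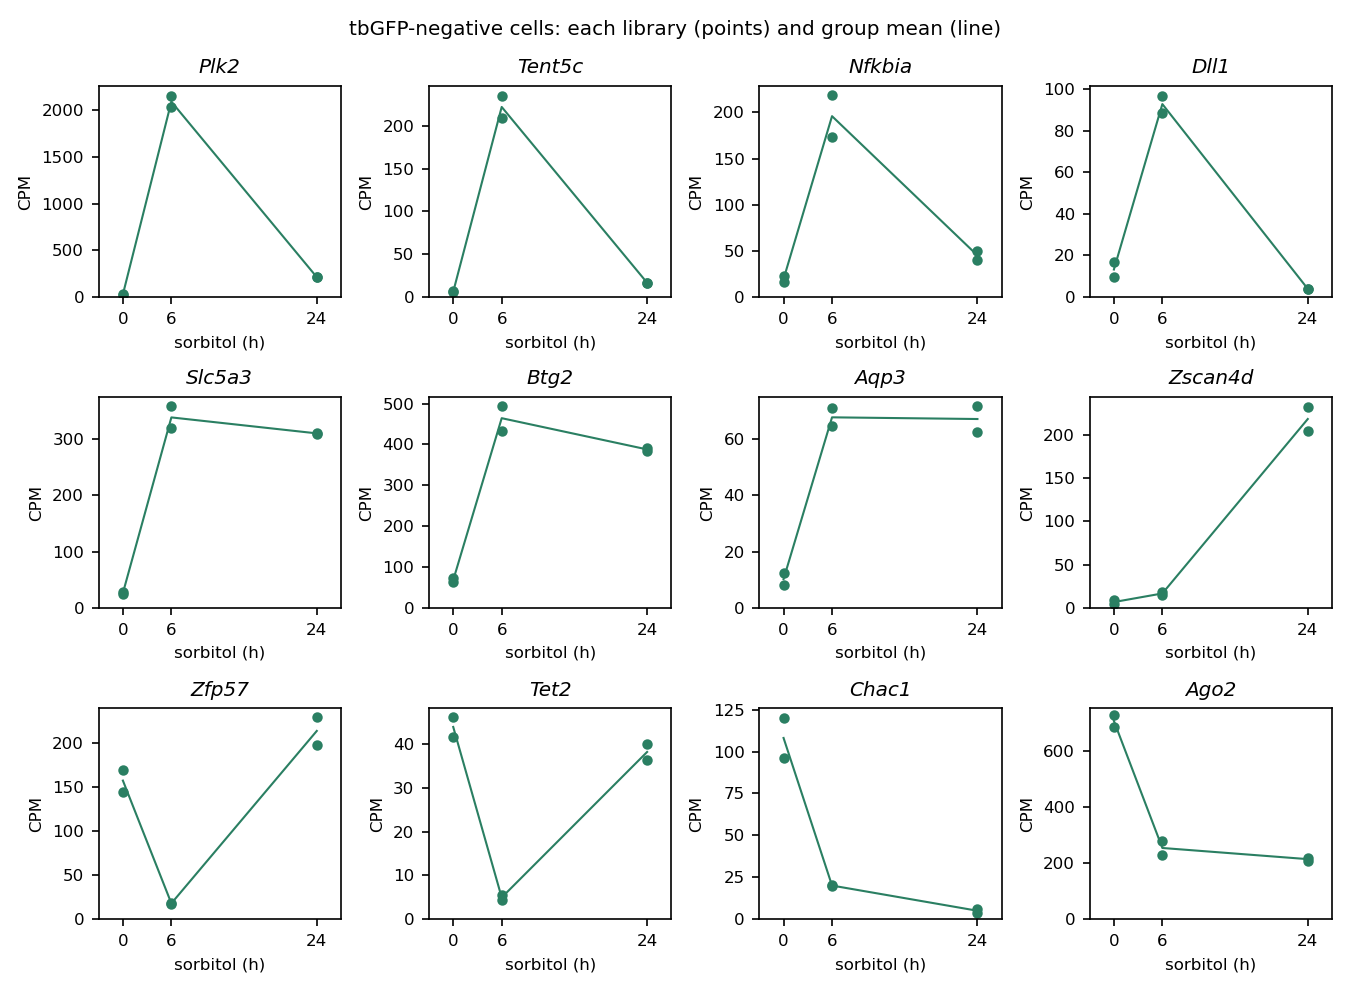
CPM at 0, 6 and 24 h of sorbitol in the tbGFP-negative libraries (points, with group means joined) for 12 genes. Plk2, Tent5c, Nfkbia and Dll1 peak at 6 h, Slc5a3, Btg2 and Aqp3 remain high at 24 h, Zscan4d is highest at 24 h, Zfp57 and Tet2 are lowest at 6 h, and Chac1 and Ago2 are lowest at 24 h.

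The same contrast was made in tbGFP-positive cells. There 1143 genes differed at 6 h (5.90%), 415 higher (2.14%) and 728 lower (3.76%). Over all genes tested the median difference, negative minus positive, was 0.25, and -0.15 with library totals alone, so its direction moved with the scaling. The test of the difference called 33 genes (0.170%), all with the larger log2 change in tbGFP-negative cells. It called 276 with DESeq2, 60 of them in the other direction, 24 with library totals alone, 6 of them in the other direction, and 1207 or 2165 without replicate 1 or 2 of the tbGFP-positive cells at 6 h. Hspa1b rose by 3.96 in tbGFP-negative cells and stood at 0.64 in tbGFP-positive cells, where it was already at 122 CPM at 0 h against 6.73 CPM (difference 3.33 ± 0.35, adjusted p = 0.000502). Ddit4l was at 256 CPM at 0 h and 183 CPM at 6 h in tbGFP-positive cells (difference 3.87 ± 0.32, adjusted p = 5.11e-05). Rn7sk was at 46306 and 30582 CPM there (difference 1.73 ± 0.26, adjusted p = 0.0118). Slc5a3 and Plk2 were not among the 33.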

How the data were processed

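Total RNA was measured in 12 libraries from 6 groups of 2, and 4 libraries enter the comparison. The submitters' processing notes name FastQC, HISAT2, featureCounts, DESeq2 and the build mm10, without versions. Per the labels, libraries were stranded. What the authors deposited are raw counts for 142446 Ensembl transcripts, and the authors' strand setting and handling of shared reads are not given in the sources used here. Since reads shared by overlapping transcripts may have been left out, levels are compared between libraries and not between genes. Counts were summed per gene with GENCODE M21 (141536 transcripts matched, by identifier without version, and at most 0.0903% of counts did not), and the 19384 genes that reached 10 counts in 2 or more libraries were tested with edgeR 4.0.16 (TMM factors, robust quasi-likelihood F test, 6 group means, threshold 0.05, biological coefficient of variation 45.6%). The test was also run on counts simulated from its own fitted dispersion, which cannot show how it performs on real variation between cultures. Depth was 2306870 to 7900178 counts per library, and bounds (a floor of 3 counts over a group) and intervals cover counting error only. Alternatives were other factors and filters, DESeq2 1.42.0, fewer libraries, a replicate block, and, chosen after seeing the data, fits without retained-intron transcripts, with protein-coding transcripts alone and without Rn7sk. Genes were named by rule: the 10 largest increases and decreases with a mean of at least 10 CPM and groups that do not overlap (model names such as Gm left out), the 6 largest changes in CPM each way, up to 5 called members of each list, and a fixed panel. All other genes named were chosen after their values were seen. The members and gene lists were chosen with earlier results of these data known. Promoters were matched by symbol to a RefSeq table of 32851 windows. A result of the S phase list is not reported here.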

Additional observations from a re-analysis of the deposited data

Results flagged for a closer look

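For 10 named genes the log2 change at 6 h differed between tbGFP-negative and tbGFP-positive cells by edgeR's quasi-likelihood test of the interaction, with Benjamini-Hochberg adjustment over 19384 genes. The difference, negative minus positive, was 3.87 for Ddit4l (adjusted p = 5.11e-05), 5.28 for Stox1 (adjusted p = 5.11e-05), 3.21 for Epm2a (adjusted p = 0.000487), 3.33 for Hspa1b (adjusted p = 0.000502) and 4.17 for Hspa1a (adjusted p = 0.00643). It was 1.91 for Zscan4d (adjusted p = 0.00934), 1.73 for Rn7sk (adjusted p = 0.0118), 1.72 for Gm8300 (adjusted p = 0.0127), 1.77 for the snoRNA Snora17 (adjusted p = 0.0226) and 1.43 for Btg1 (adjusted p = 0.0334). Stox1, Epm2a, Snora17 and Btg1 were named after their values were seen. Btg1 rose in both fractions, by 2.42 and by 0.99, while Stox1 and Epm2a rose in tbGFP-negative cells (0.582 to 8.57 and 3.27 to 14.7 CPM) and fell in tbGFP-positive cells (218 to 68.7 and 563 to 246 CPM). The number of genes that differed depended on the tbGFP-positive libraries at 6 h: it was 33 with both, 1207 without replicate 1 and 2165 without replicate 2.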

How the results depend on the processing

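The 6 h comparison gave 860 calls, and 1417 with DESeq2, 3942 with only the 4 libraries, 4348 with the 6 tbGFP-negative libraries and 2542 without both tbGFP-positive libraries at 6 h. It gave 915 with library totals alone, 781 with upper-quartile factors, 1134 with no filter on low counts, 1002 with at least 50 counts, 681 for genes also changed at least 2-fold and 709 with transcripts tested one by one. Leaving out 1 library at a time gave 152 to 2532 calls: 226 and 152 without replicate 1 or 2 at 0 h, 207 and 234 without replicate 1 or 2 at 6 h, and 2532 and 2502 without replicate 1 or 2 of the tbGFP-positive cells at 6 h. A group left with 1 library is assumed to vary like the other groups. The interaction gave 33 calls, 276 with DESeq2 and 10 to 2165 with 1 library left out. The comparison of 24 h with 6 h gave 1534, 2345 with DESeq2 and 557 to 3826, that of 24 h with 0 h 774, 1312 and 269 to 1883, and that of 6 h with 0 h in tbGFP-positive cells 1143, 2419 and 486 to 4008. A fit with the replicate block gave 754 calls for the 6 h comparison. The labels do not say what the numbers mark, deviations of same-numbered libraries correlated with r from -0.040 to 0.030, and the numbers were not taken as a pairing. Of 169 named genes that were called 49 kept the call in every alternative that held them, and none was called in the other direction. Without 1 of the 4 libraries 85 (0 h replicate 1), 108 (0 h replicate 2), 93 (6 h replicate 1) and 87 (6 h replicate 2) lost it. With library totals alone 40 did, and without retained-intron transcripts 11. The depth of the 0 h replicate 1 library makes 3 counts equal to 1.30 CPM of its total, so genes with 0 to 3 counts in both 0 h libraries together are given as bounds or with counting intervals, and fitted folds of genes just above that, such as Tph2 (4 counts), Dusp2 (5) and Cdkn1a (6), depend on few counts.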

Other observations

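In the circadian list 3 of 14 genes rose (21.4%, against 3.22% of all genes) and none fell. The repressor gene Nr1d2 went from 37.9 and 42.2 to 126 and 110 CPM (1.55 ± 0.22, adjusted p = 0.00109 by edgeR's quasi-likelihood test). Tef and Dbp, which also rose, had over 50% of their counts on retained-intron transcripts. Among 26 splicing factor genes Srsf6, a serine-arginine-rich factor, went from 225 and 225 to 802 and 700 CPM (1.74 ± 0.21, adjusted p = 0.000249) and Luc7l3 from 38.7 and 49 to 99.9 and 109 CPM (adjusted p = 0.00816). Cirbp and Rbm3, which respond to cold and mild osmotic stress, and the CLK kinase genes did not pass. Ddx3x, an RNA helicase gene, went from 1197 and 1153 to 3474 and 2681 CPM (1.39 ± 0.14, adjusted p = 6.71e-05), and the giant scaffold gene Ahnak from 1430 and 1642 to 3475 and 3774 CPM (1.24 ± 0.15, adjusted p = 0.000266).

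Metabolic lists held few calls, though the share that rose in sterol and fatty acid synthesis was 7.14%, against 3.22% of all genes. In sterol and fatty acid synthesis 2 of 28 genes rose, Elovl6 (351 and 383 to 620 and 570 CPM) and the sterol sensor gene Insig1 (111 and 126 to 210 and 203 CPM), and both calls ended with library totals alone and in each fit without 1 of the 4 libraries. In hypoxia and glycolysis Adm rose and Eno1 fell of 23, the latter with 62% of counts on retained-intron transcripts. None of 8 polyamine genes and none of 14 genes of the mitochondrial genome was called. Secreted and cell-surface genes named after their values were seen included the ephrin receptor gene Epha2 (258 and 254 to 1158 and 1453 CPM, adjusted p = 0.0091), the interleukin gene Il11 (none and 0.792 to 11.5 and 17.8 CPM, adjusted p = 0.0182) and, among transcription factors, Snai1 (2.98 and 0.792 to 22.9 and 26.5 CPM, adjusted p = 0.00295).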
